A study of Mus musculus with 21 samples.

Results

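Kidney RNA-seq of apoE knockout (KO) mice was examined for 7 genes of cholesterol synthesis and its control by the transcription factor SREBP2: Hmgcs1, Idi1, Fdps, Sqle, Lss, Insig1 and Srebf2. The 7 genes were chosen by name, as steps of the mevalonate and sterol pathway or as parts of its feedback loop, and all 7 were found by symbol among 20634 genes with values in every mouse. The mice were female and apoE KO in all groups, controls included, and were 4 weeks old when the diets began and 18 weeks old at collection. The control (Con) group received standard chow, the adenine (Ade) group chow with adenine, which injures the renal tubules and gives chronic kidney disease, and the Ade + IMC group adenine with iodomethylcholine (IMC), an inhibitor of the gut microbial enzymes that make the trimethylamine precursor of TMAO. There were 5 Con, 6 Ade and 6 Ade + IMC mice with values, and 4 further mice given control diet with IMC were not analysed here. The knockout of Apoe limits these kidneys as a model of sterol balance, because apoE carries cholesterol between cells and its loss raises plasma cholesterol in every group. The paper reports that plasma total cholesterol also differed between the diets. It was higher in Ade than in Con, and lower in Ade + IMC than in Ade. The part of this difference in the results below was not tested.

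Cells make cholesterol from acetyl-CoA. Hmgcs1 encodes the cytosolic HMG-CoA synthase, an early enzyme of the mevalonate pathway. Idi1 and Fdps encode enzymes that build farnesyl diphosphate from mevalonate-derived units, Sqle encodes the squalene epoxidase, and Lss encodes the lanosterol synthase that closes the sterol rings. Srebf2 encodes SREBP2, which is held in the endoplasmic reticulum when sterols are plentiful and is released to switch on these genes when sterols are low. Insig1 encodes one of the proteins that hold it there, and is itself an SREBP target. SREBP2 binds sterol response elements, usually together with the CCAAT-binding factor NF-Y.

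Promoter windows from RefSeq (GRCm38.p6), running from 250 bases before to 50 bases after the transcript start, were found for 5 of the 7 genes. Sqle and Fdps had no entry in the set of windows used here. The letters TCACNCCAC, a core of the sterol response element, were searched on both strands, as were CCAAT and GGGCGG (a GC box), and no match of one kind overlapped a match of another in these windows. The windows of Hmgcs1 and Lss, which were lower with adenine, and of Insig1 and Srebf2, which did not pass the test, are shown so that they can be compared letter by letter. Capitals mark the 9-letter sterol response element core and the 5-letter CCAAT boxes, read on either strand.
Hmgcs1, chr13:119690101-119690400, plus strand: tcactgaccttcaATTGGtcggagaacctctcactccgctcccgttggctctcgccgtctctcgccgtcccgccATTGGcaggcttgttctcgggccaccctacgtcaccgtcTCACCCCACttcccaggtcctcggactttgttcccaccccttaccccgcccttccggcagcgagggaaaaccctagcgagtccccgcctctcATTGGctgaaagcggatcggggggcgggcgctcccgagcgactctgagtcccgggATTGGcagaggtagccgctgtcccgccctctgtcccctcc
Lss, chr10:76531355-76531654, plus strand: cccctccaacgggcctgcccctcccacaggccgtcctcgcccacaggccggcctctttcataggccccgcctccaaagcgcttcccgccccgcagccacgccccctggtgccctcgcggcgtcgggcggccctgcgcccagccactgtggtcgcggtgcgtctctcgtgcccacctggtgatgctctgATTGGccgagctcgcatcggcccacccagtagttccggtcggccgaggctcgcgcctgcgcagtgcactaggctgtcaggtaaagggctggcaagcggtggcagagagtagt
Insig1, chr5:28071162-28071461, plus strand: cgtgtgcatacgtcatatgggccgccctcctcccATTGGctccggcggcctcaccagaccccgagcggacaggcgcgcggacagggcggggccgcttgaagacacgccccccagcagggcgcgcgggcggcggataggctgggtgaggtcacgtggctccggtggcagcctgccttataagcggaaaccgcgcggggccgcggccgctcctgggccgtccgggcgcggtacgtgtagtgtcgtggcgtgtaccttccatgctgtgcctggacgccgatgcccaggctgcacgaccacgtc
Srebf2, chr15:82147019-82147318, plus strand: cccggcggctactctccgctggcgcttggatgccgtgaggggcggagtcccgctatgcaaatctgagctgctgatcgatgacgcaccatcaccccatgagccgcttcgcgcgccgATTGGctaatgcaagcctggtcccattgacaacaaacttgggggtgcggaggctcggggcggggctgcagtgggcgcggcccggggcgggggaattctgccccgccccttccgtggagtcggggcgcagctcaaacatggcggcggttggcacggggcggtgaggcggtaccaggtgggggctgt
Hmgcs1 held the only sterol response element core among the 5 windows, TCACCCCAC on the plus strand, beginning 137 bases before the start, and it held 4 CCAAT boxes. These letters were present in 1.24% of all 32851 promoter windows. Each of Lss, Insig1 and Srebf2 held 1 CCAAT box and Idi1 held 2, and a CCAAT box was present in 37.4% of all windows. GC boxes numbered 3 in Hmgcs1, 2 in Lss, 3 in Insig1, 5 in Srebf2 and 1 in Idi1, against 35.7% of all windows with at least 1. A match is a description of these letters and not evidence of a bound site. Only exact letters in these windows were searched, so the lack of a match does not show that an element is absent.

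The libraries held between 5444833 and 11680809 counts each, with medians of 8864086 in Con, 7306465 in Ade and 6996368 in Ade + IMC. Adenine changed most of the kidney transcriptome: 9841 of 14612 genes tested, 67.3%, passed an adjusted p of 0.1 in Ade compared to Con by edgeR's quasi-likelihood test. All 12 proximal tubule markers were lower, with summed levels of 24575 to 31667 counts per 1000000 reads (CPM) in Con and 3065 to 13476 in Ade, and all 8 macrophage and myeloid markers were higher, with 201.6 to 242.9 CPM in Con and 1328 to 2177 in Ade. In whole kidney RNA, fewer cells of a type and less RNA per cell cannot be told apart, and the part of these shifts in the results for the sterol genes was not tested. The adipocyte hormone gene Adipoq was above 10 CPM in 1 Ade mouse (replicate 1) and in 3 Ade + IMC mice (replicates 1, 2 and 5), and at most 2.74 CPM in the other 13. Fits without these 4 mice were added for the comparisons below.

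The 7 genes spanned a wide range of levels. Per kilobase of annotated exon, which allows genes to be compared, the Con kidneys held 84.4 ± 12.1 CPM of Hmgcs1 (SD, n = 5), 17.7 ± 1.26 of Srebf2, 11.2 ± 3.19 of Sqle, 8.99 ± 1.06 of Insig1, 2.88 ± 0.212 of Lss, 2.06 ± 0.311 of Fdps and 0.190 ± 0.156 of Idi1. Hmgcs1 stood clear of the others. The neighbours Srebf2 and Sqle, Sqle and Insig1, and Lss and Fdps had overlapping ranges, so their order is not fixed. Lengths cover all annotated exons, so a gene with long exons that kidney seldom uses reads too low on this scale. All levels below are CPM after TMM scaling over the 17 mice, not per length, and serve only to compare mice for one gene.

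**Figure D1:**
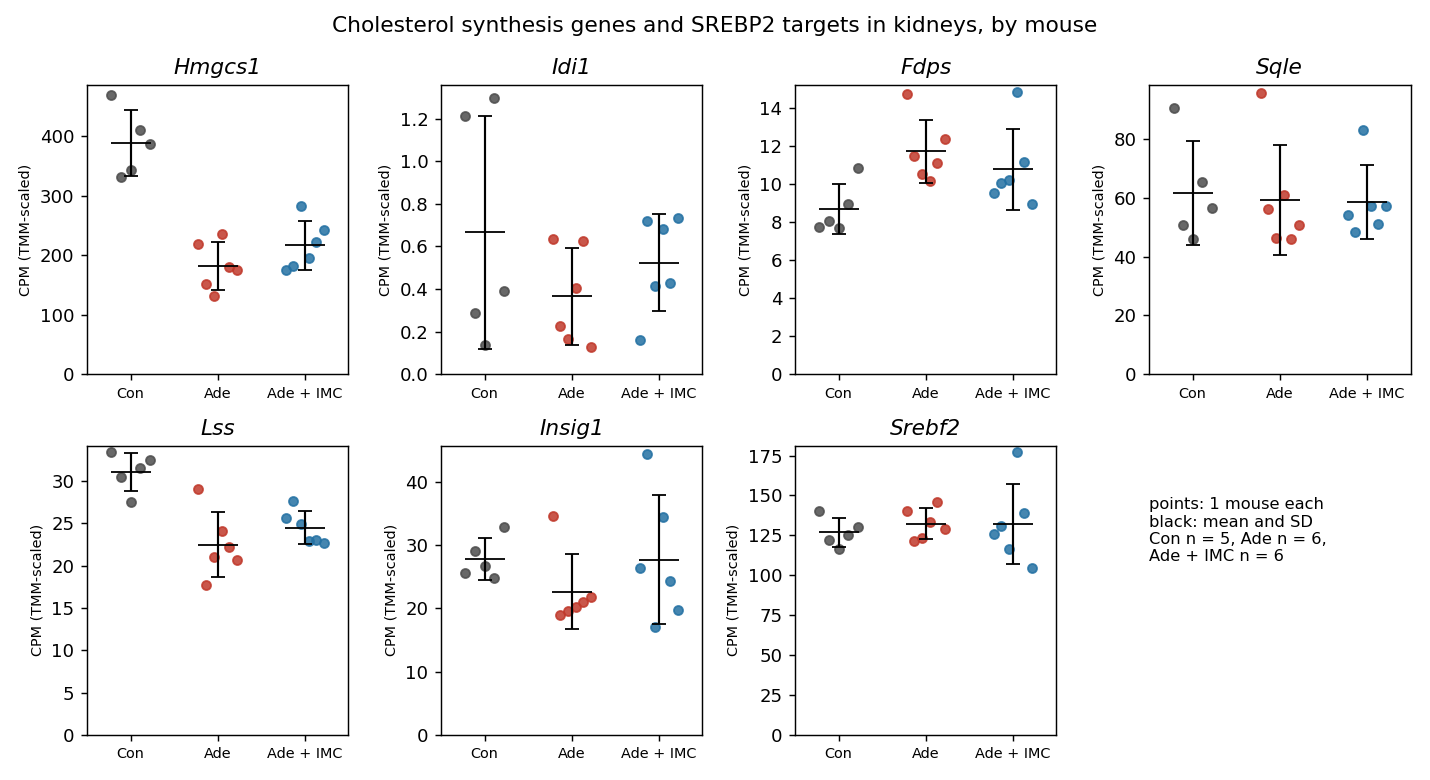
Levels of the 7 genes in each kidney (vertical axes, CPM after TMM scaling, from 0; horizontal axes, the 3 diet groups); points are single mice, black marks the mean ± SD (Con n = 5, Ade n = 6, Ade + IMC n = 6). Hmgcs1 lies between 330.4 and 468.9 CPM in Con and between 131.2 and 235.2 in Ade, while the Srebf2 ranges lie on top of each other and Idi1 stays at or below 1.30 CPM.

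Adenine feeding lowered Hmgcs1 to 0.476 times the Con level, lowered Lss modestly, raised Fdps modestly, and left Sqle, Insig1 and Srebf2 short of the threshold. Of the 6 genes with enough counts to be tested, 3 passed, 1 higher and 2 lower, against 67.3% of all genes tested (35.1% higher and 32.2% lower). Their median log2 fold change was -0.15, beside 0.02 over all genes. The genes therefore did not move as a block: the values ranged from -1.07 to 0.46 on the log2 scale.

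Hmgcs1 (ENSMUSG00000093930, chr13:119690379-119708260, plus strand, GRCm38) was measured at 468.9, 330.4, 343.5, 409.7 and 386.9 CPM in the 5 Con mice. In the Ade mice its lowest level was 131.2, its median 176.8 and its highest 235.2 CPM. No Ade mouse reached the lowest Con mouse. The log2 fold change was -1.07 ± 0.15 (SE), with an edgeR adjusted p of 3.2e-05. The two-sided exact permutation test gave p = 0.00216, the smallest possible with these group sizes, and p = 0.0139 when mice were exchanged only among those whose numbers began with the same digit, a label whose meaning is not stated. An antisense gene, Gm48342, overlaps 557 of its 4594 exon bases. Whether the counting used strand is not given in the sources used here, so reads there cannot be assigned with certainty.

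Lss (ENSMUSG00000033105, chr10:76531588-76557138, plus strand) was at 33.4, 30.5, 27.5, 31.6 and 32.5 CPM in the Con mice and at 17.7, 21.6 and 29.1 CPM in Ade (lowest, median and highest). Only the highest Ade mouse, replicate 1, lay within the Con range. Its log2 fold change was -0.45 ± 0.11, with an edgeR adjusted p of 0.00331. The call was lost when libraries were scaled by their total alone, with a log2 fold change of -0.15 and an adjusted p of 0.23. That scaling moved the median of all genes to 0.32 on the log2 scale and the calls to 7990 higher and 2497 lower, against 5135 and 4706 with TMM.

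Fdps (ENSMUSG00000059743, chr3:89093588-89101959, minus strand) was the one gene of the 7 that rose. It was at 7.77, 8.09, 7.72, 8.96 and 10.8 CPM in Con and at 10.1, 11.3 and 14.7 CPM in Ade. The Con mouse with 10.8 CPM overlapped the Ade range, and the other 4 lay below it. The log2 fold change was 0.46 ± 0.14, with an edgeR adjusted p of 0.0107. The measurement rests on 56 to 116 counts per mouse in these groups. It is also uncertain in identity: the gene Gm43738 overlaps 1124 of its 4208 exon bases on the same strand, and 26.2% of its 50-base words, the length of 1 read, also occur in transcripts of 8 other genes.

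Sqle (ENSMUSG00000022351, chr15:59315077-59331192, plus strand) was at 90.7, 50.7, 45.9, 65.3 and 56.7 CPM in Con. In Ade it was at 46.0, 53.6 and 95.8 CPM (lowest, median and highest). The ranges overlapped almost wholly, and 1 mouse in each group stood well above the rest. The log2 fold change was -0.04 ± 0.21, with an edgeR adjusted p of 0.887. Its SE is larger than that of the other 5 tested genes, so a modest change was not detectable.

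Neither regulator passed the test. Srebf2 (ENSMUSG00000022463, chr15:82147181-82205379, plus strand) varied little between mice, at 140.5, 122.3, 116.5, 125.3 and 130.5 CPM in Con and 121.6, 131.4 and 145.9 CPM in Ade. Its log2 fold change was 0.08 ± 0.07, with an edgeR adjusted p of 0.352. With library totals alone it was 0.38, with an adjusted p of 0.000496, close to the median of 0.32 that all genes then took. Insig1 (ENSMUSG00000045294, chr5:28071363-28078662, plus strand) was at 25.6, 29.0, 26.7, 24.8 and 32.9 CPM in Con. In Ade, 5 mice lay between 19.0 and 21.8 CPM, below every Con mouse, and replicate 1 lay at 34.6 CPM, above every Con mouse. The log2 fold change was -0.27 ± 0.15, with an edgeR adjusted p of 0.133. Without Ade replicate 1, which held 17.3 CPM of Adipoq, it was -0.43 ± 0.10, with an adjusted p of 0.00221. The call for Insig1 thus turned on 1 mouse, and the part of its adipose RNA was not tested.

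Idi1 (ENSMUSG00000058258, chr13:8885501-8892451, plus strand) could not be followed. It had 12, 2, 1, 10 and 3 counts in the Con mice, 1 to 5 in Ade and 1 to 6 in Ade + IMC, and did not pass the filter on low counts. The Con mice alone spanned 0.135 to 1.30 CPM. A two-sided exact permutation test of Ade compared to Con gave p = 0.327, and no change was detectable at this depth. Of its 50-base words, 25.3% also occur in transcripts of 5 other genes, so reads from Idi1 may have been dropped or assigned elsewhere, which was not tested.

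The rest of the pathway was read from lists of genes with known roles. Of 14 other cholesterol synthesis enzymes, 8 were lower, 3 were higher and 3 did not pass, where 32.2% of all genes tested were lower and 35.1% higher, with a median log2 fold change of -0.39 beside 0.02 for all genes. The largest falls were of Cyp51, the lanosterol demethylase that acts directly after Lss (log2 fold change -1.79 ± 0.29, edgeR adjusted p = 0.00013), and of Hsd17b7, a keto-reductase that acts in the removal of the sterol methyl groups (-0.87 ± 0.14, adjusted p = 0.000128). Cyp51 ranged from 433.2 to 541.1 CPM in Con and from 65.3 to 258.6 CPM in Ade, without overlap. The largest rises were of Lbr, a sterol reductase of the nuclear envelope (0.35 ± 0.09, adjusted p = 0.00512, but 0.123 when all 3 groups were fitted together), and Pmvk, the phosphomevalonate kinase (0.34 ± 0.15, adjusted p = 0.0609). The call of Pmvk was lost when any 1 of 6 mice was left out (Con replicate 1, 4 or 5, or Ade replicate 1, 2 or 5), with values of 0.28 to 0.33.

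**Figure D2:**
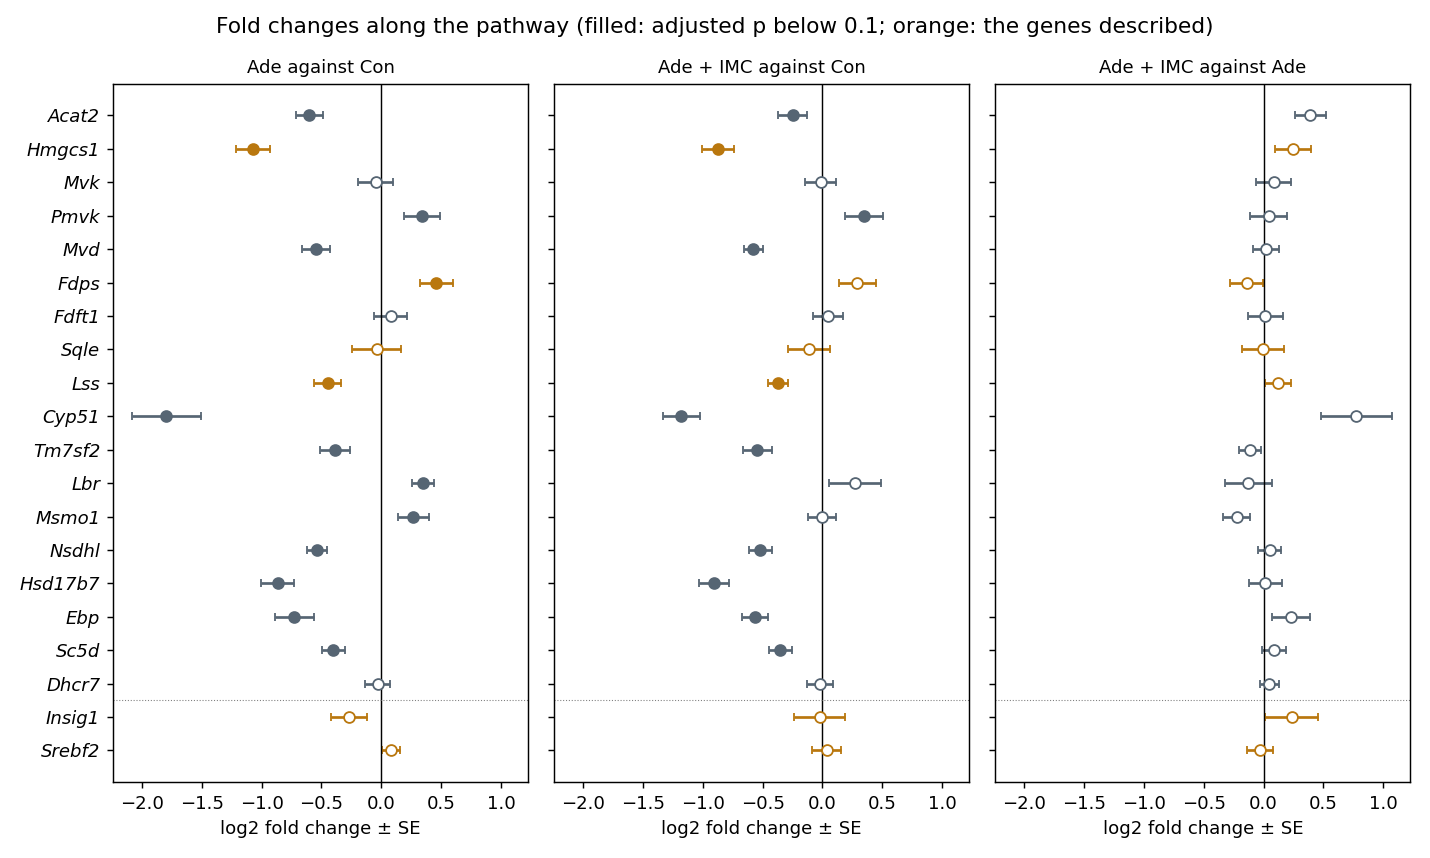
Log2 fold changes ± SE (horizontal axes) of 6 of the 7 genes (orange) and 14 further cholesterol synthesis enzymes (grey), in pathway order from top to bottom with the regulators Insig1 and Srebf2 last, for 3 comparisons; filled points passed an adjusted p of 0.1 and Idi1 was not tested. In Ade compared to Con, Cyp51 lies at -1.79, Hmgcs1 at -1.07 and Fdps at 0.46, and in Ade + IMC compared to Ade every point is open.

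Of 16 other regulators of the SREBP pathway, 9 were lower, 3 were higher and 4 did not pass, with a median of -0.23. The number called was thus not far from the 67.3% of all genes that passed. Scap, which escorts SREBPs out of the endoplasmic reticulum, was lower (log2 fold change -0.37 ± 0.08, edgeR adjusted p = 0.000801; not called with library totals alone), as was Insig2, the partner of Insig1 (-0.45 ± 0.08, adjusted p = 0.000394). The largest falls were of Erlin1 (-1.15 ± 0.15) and Erlin2 (-0.82 ± 0.10), cholesterol-binding membrane proteins of the endoplasmic reticulum. Nfya, a subunit of NF-Y, had the largest rise (0.76 ± 0.08, adjusted p = 4.8e-06), followed by Fbxw7 (0.32 ± 0.08), part of a ubiquitin ligase that clears nuclear SREBPs. Srebf1 did not pass (0.26 ± 0.16, adjusted p = 0.161), but was called without Ade replicate 4, at 0.34, with library totals alone, at 0.57, and with upper quartile scaling, at 0.33.

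Targets of SREBP2 that serve uptake and movement of cholesterol went both ways, with 2 of 8 higher, 5 lower, 1 not passing and a median of -0.50, again beside 32.2% lower and 35.1% higher among all genes. Stard4, a sterol carrier, and Tmem97, a membrane protein of cholesterol transport, had the largest falls, with -1.06 ± 0.13 and -0.68 ± 0.13. Npc2 and Npc1, which together move cholesterol out of lysosomes, rose by 0.96 ± 0.09 and 0.65 ± 0.09.

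Neighbouring pathways are given for scale, and their counts are to be read against the same 35.1% higher and 32.2% lower of all genes tested. In fatty acid synthesis and SREBP1 targets 7 of 14 genes were lower and 1 was higher, with a median of -0.26, led by falls of the desaturases Scd1 (-1.97 ± 0.39) and Fads2 (-1.43 ± 0.11) and a rise of Mid1ip1 (0.60 ± 0.15). In the isoprenoid branch, which draws on the product of Fdps, 9 of 12 were lower and 2 higher, with a median of -0.38. There Nus1 (-1.52 ± 0.21) and Pdss2 (-0.81 ± 0.12) had the largest falls, and the farnesyltransferase subunit Fntb (0.56 ± 0.14) and the CAAX protease Rce1 (0.39 ± 0.11) the largest rises. Genes of the opposite arm, which respond to sterol excess through LXR or serve efflux and storage, had a median of 0.74, with 5 of 9 tested higher and 3 lower. The exporter Abcg1 rose by 1.10 ± 0.17. Soat2, which esterifies cholesterol, had a higher fitted value (2.51 ± 0.33), but it had only 2 to 5 counts in each Con mouse, so its fold is imprecise, and it was not tested in Ade + IMC compared to Con. In the other direction, Nceh1, an ester hydrolase, and Nr1h3, which encodes LXR alpha, fell most (-1.82 ± 0.24 and -0.67 ± 0.15). Among oxysterol and bile acid hydroxylases 3 of 6 tested were higher and none was lower at an adjusted p of 0.1 by edgeR, led by Ch25h (2.12 ± 0.21), which makes 25-hydroxycholesterol, a suppressor of SREBP release, and by Cyp7b1 (1.23 ± 0.13). Residual Apoe reads were at 10.7 ± 3.59 CPM in Con and 19.9 ± 5.30 in Ade (log2 fold change 0.93 ± 0.24, adjusted p = 0.00457). Transcript outside the deleted part can still be read, so these values do not check the knockout.

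**Figure D3:**
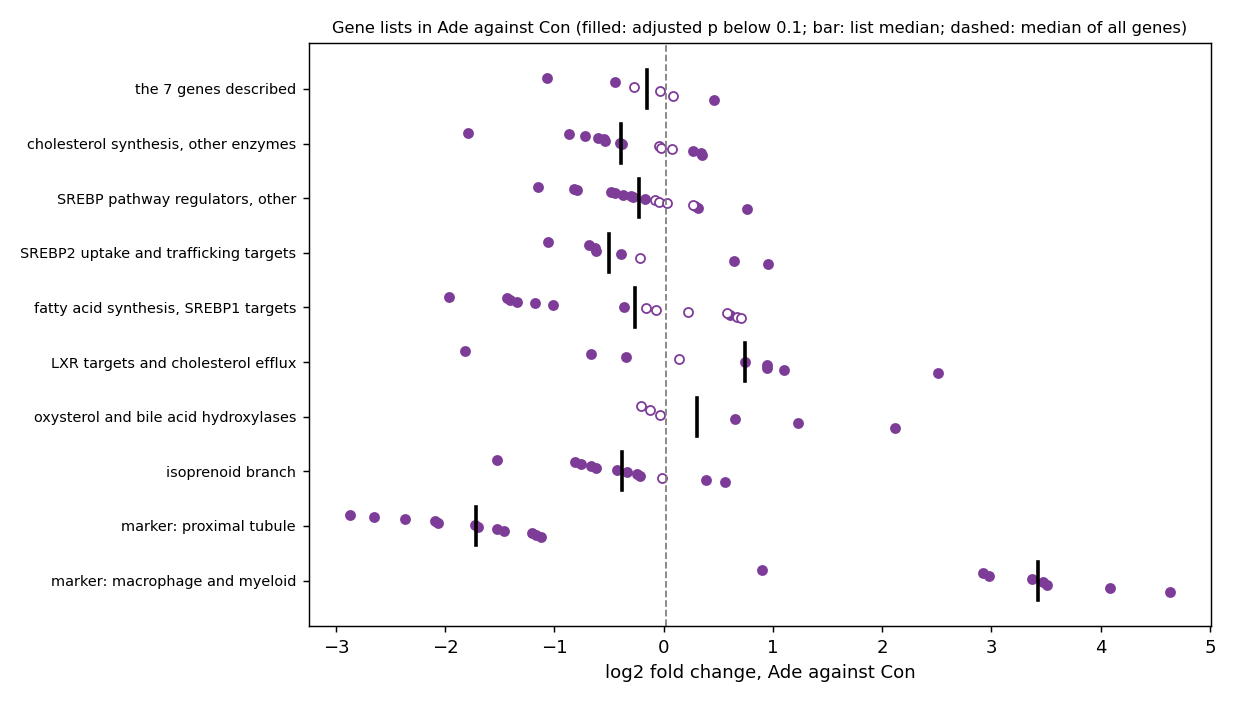
Log2 fold changes in Ade compared to Con (horizontal axis) for every tested gene of 10 lists (vertical axis), filled where the adjusted p is below 0.1; black bars mark list medians and the dashed line the median of all genes tested, 0.02. The 7 genes described have a median of -0.15, the other cholesterol synthesis enzymes -0.39 and the LXR and efflux genes 0.74, beside -1.72 for proximal tubule markers and 3.42 for macrophage and myeloid markers.

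In Ade + IMC compared to Con, which shares the Con mice with the comparison above, Hmgcs1 and Lss were again lower and no other of the 7 passed. Thus 2 of 6 tested were called, both lower, where 63.2% of all 14578 genes tested passed (30.9% higher and 32.3% lower). Hmgcs1 in Ade + IMC had a lowest level of 174.4, a median of 208.7 and a highest of 282.6 CPM, all below the Con mice. Its log2 fold change was -0.87 ± 0.13, with an edgeR adjusted p of 0.000104. Lss was at 22.7, 24.0 and 27.6 CPM, and only its highest mouse lay within the Con range. The log2 fold change of Lss was -0.37 ± 0.08, with an edgeR adjusted p of 0.0017. With library totals alone the call of Lss was lost (-0.0808, edgeR adjusted p = 0.413). Fdps was at 8.94, 10.1 and 14.9 CPM, with a log2 fold change of 0.29 ± 0.16 that missed the threshold (adjusted p = 0.131). It passed without Con replicate 5 (0.38, adjusted p = 0.0653) and without Ade + IMC replicate 6 (0.38, adjusted p = 0.0576). The values were -0.11 ± 0.18 for Sqle, -0.02 ± 0.21 for Insig1 and 0.03 ± 0.12 for Srebf2, none of which passed. Without the 3 Ade + IMC mice with Adipoq above 10 CPM, Hmgcs1 was at -0.69 ± 0.15 and Lss at -0.40 ± 0.10, both still called, and Insig1 was at -0.21 ± 0.22. Outside the 7, Cyp51 was lower (-1.18 ± 0.16, adjusted p = 3.8e-05).

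The comparison of Ade + IMC with Ade asks whether inhibiting TMAO formation altered these genes during adenine feeding. None of the 6 tested genes passed, and 0% of the 14696 genes tested passed in limma at an adjusted p of 0.1. At an unadjusted p under 0.05 there were 988 genes by limma and 985 by edgeR on whole reads recovered from the normalised counts, where edgeR also called 0 and DESeq2 called 37. With that leading digit as a block term 0.905% of the genes passed, none of the 7 among them. For this comparison the paper reports far more genes in each direction than any of these fits called, by DESeq2 at the same threshold. The reason for the difference was not tested. The threshold misses do not show that the groups were alike, so the intervals matter more than the p-values. They are on the log2(normalised count + 1) scale.

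Hmgcs1 was 0.25 ± 0.15 higher in Ade + IMC than in Ade (95% interval -0.07 to 0.57, limma adjusted p = 0.768), with overlapping ranges of 174.4 to 282.6 and 131.2 to 235.2 CPM. The exact permutation p was 0.162, and 0.194 within leading digits. Insig1 differed by 0.23 ± 0.22 (interval -0.24 to 0.71), with Ade + IMC mice spread from 17.003 to 44.4 CPM around a median of 25.4. Lss differed by 0.12 ± 0.11 (interval -0.11 to 0.36). The differences of Sqle, -0.01 ± 0.18 (interval -0.38 to 0.37), Srebf2, -0.03 ± 0.11 (interval -0.27 to 0.21), and Fdps, -0.14 ± 0.14 (interval -0.43 to 0.15), were smaller than or about equal to their errors. With all mice, the intervals of Lss, Sqle, Srebf2 and Fdps leave out a change of 0.5 log2 units in either direction, but that of Sqle rests on the 4 Adipoq mice, without which its difference was 0.31 ± 0.16. For Hmgcs1 and Insig1 they do not, so an increase of that size was not resolved. Single mice moved these small differences. Leaving out 1 mouse at a time, that of Hmgcs1 ran from 0.16 (without Ade replicate 3) to 0.33, that of Insig1 from 0.08 (without Ade + IMC replicate 2) to 0.36 (without Ade replicate 1), that of Lss from 0.06 (without Ade replicate 2) to 0.20 (without Ade replicate 1) and that of Fdps from -0.24 (without Ade + IMC replicate 4) to -0.07 (without Ade replicate 1), and none passed.

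Among the other enzymes, 11 of 14 had positive differences, as had 7585 of all 14696 genes, and none passed, with a median of 0.04 beside 0.01 for all genes. Cyp51 had the largest, 0.78 ± 0.29 (95% interval 0.14 to 1.41, limma adjusted p = 0.711, and 0.102 with the leading digit as a block). It ranged from 157.3 to 291.3 CPM in Ade + IMC and from 65.3 to 258.6 CPM in Ade. Leaving out the 4 mice with Adipoq above 10 CPM left 5 Ade and 3 Ade + IMC mice and raised the differences of Hmgcs1 to 0.46 ± 0.19 and of Sqle to 0.31 ± 0.16, neither of which passed by limma. Without these mice the differences were 0.15 ± 0.21 for Insig1, 0.15 ± 0.12 for Lss, -0.01 ± 0.18 for Fdps and -0.03 ± 0.17 for Srebf2. The proximal tubule markers in these groups summed to 6454 to 18076 CPM in Ade + IMC and 3065 to 13476 CPM in Ade, and their part in these differences was not tested.

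Inside the groups, some of the genes varied together. Each mouse's log2 level was expressed as its deviation from its group mean, for the 6 genes with a mean of at least 10 counts over 17 mice. Hmgcs1 and Sqle deviated together (Pearson r = 0.74, Spearman rho = 0.68), and the same 3 mice, Con replicate 1, Ade replicate 1 and Ade + IMC replicate 3, were highest or next to highest in their groups for both. Sqle in these mice lay 0.59, 0.74 and 0.53 log2 units above the group means. Sqle and Lss had r = 0.56 and Hmgcs1 and Lss r = 0.44. Fdps, Insig1 and Srebf2 also deviated together, with r = 0.66 for Fdps and Srebf2, 0.54 for Fdps and Insig1 and 0.53 for Insig1 and Srebf2. Of the mice, Ade + IMC replicate 4 was high in all 3 genes, by 0.47, 0.39 and 0.44. Between Hmgcs1, Sqle and Lss on one side and Fdps, Insig1 and Srebf2 on the other, r ran from -0.24 for Hmgcs1 and Insig1 to 0.53 for Lss and Insig1. Over all 15 pairs the median r was 0.25. Without the 4 Adipoq mice, the r of Hmgcs1 and Sqle was 0.75, that of Hmgcs1 and Lss 0.64 and that of Sqle and Lss 0.46. That of Fdps and Insig1 was then 0.71 and that of Sqle and Insig1 -0.40 (from -0.03). The r of Lss and Insig1 fell from 0.53 to 0.04, so the link between Lss and Insig1 rests on these mice. These are descriptions over points that share libraries and depth, with no test.

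**Figure D4:**
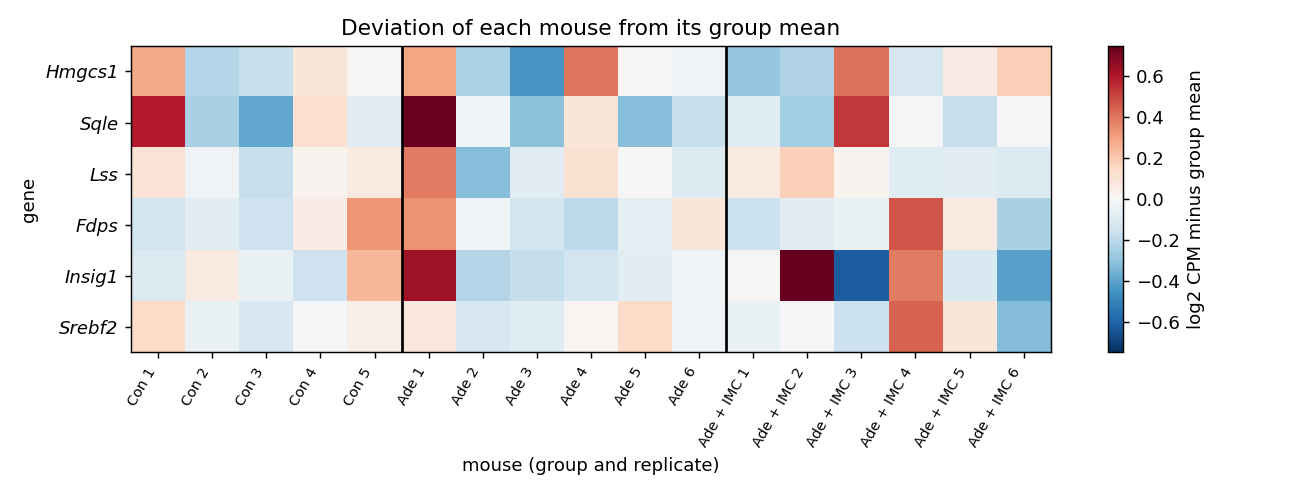
Deviation of each mouse from its group mean (colour, log2 CPM units, red above and blue below) for 6 genes (rows) in 17 mice (columns, ordered by group and replicate, black lines between groups). Con 1, Ade 1 and Ade + IMC 3 are red in both Hmgcs1 and Sqle, while Ade + IMC 4 is red in Fdps, Insig1 and Srebf2.

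The genes whose deviations were most like the mean deviation of these 6 were ranked among 14666 others. The 8 nearest were Ube4b (r = 0.84, rho = 0.81), Tmed10 (r = 0.83), Mief1 (0.82), Gm13509 (0.80), Csnk1g1 (0.80), Nol11 (0.79), Mars (0.79) and Dync1li2 (0.79), over 17 mice. The 95th percentile of r over all ranked genes was 0.50. Of the 14 other cholesterol synthesis enzymes, 2 were above that value, Msmo1 (r = 0.73, and 0.63 without the 4 Adipoq mice) and Sc5d (0.70, and 0.69), which are named for this after their values were seen. The other enzymes ran from -0.41 for Ebp to 0.47 for Dhcr7, with Cyp51 at -0.07. They ran from -0.49 to 0.52 without the 4 Adipoq mice, with Ebp then at -0.06, Dhcr7 at 0.47 and Cyp51 at 0.26. Without the 2 mice farthest from the median, the r values of the 8 genes were 0.57 to 0.80. When Idi1 was included in the mean, 5 of the 8 remained among the nearest 8.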

How the data were processed

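Kidney RNA of 17 apoE KO mice was compared (5 Con, 6 Ade and 6 Ade + IMC), and 4 Con + IMC mice were not analysed here. The authors deposited raw read counts per gene for Con and Ade and, for Ade and Ade + IMC, a signal in the form of counts divided by DESeq2 size factors. The study's methods name single-end reads aligned to mm10 with STAR, whereas the submitters' processing notes name Trimmomatic 0.39, Bowtie2 2.2.5 and HTSeq 0.9.1, so the aligner is not settled. Which annotation was used, and whether counting was stranded, is not given in the sources used here. A table of the authors' own comparison was used only for its pairing of gene symbols with Ensembl identifiers.

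Whole reads were recovered from the normalised counts (100% of values whole at a tolerance of 0.01 reads, and 0 different from the raw counts of the Ade mice). Ade and Ade + IMC were each compared to Con with edgeR 4.0.16 (TMM, filterByExpr, quasi-likelihood), and Ade + IMC to Ade with limma 3.58.1 on log2(normalised count + 1) for genes with a mean of at least 10. A gene counted as called below an adjusted p of 0.1 (Benjamini-Hochberg), the threshold of the study. Standard errors from edgeR are the fold change divided by the root of F. In a library of these sizes 3 counts, the limit that a count of 0 allows, correspond to 0.257 to 0.551 CPM. These limits are by library total, without TMM scaling, and cover counting error only. The least different replicate pair of 40 had a chi-square of 3.97 per degree of freedom, so no library was a duplicate. Nothing in the labels pairs mice across groups. Gene positions and shared 50-base words came from GENCODE M21 (GRCm38) and promoters from RefSeq.

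The 7 genes and all lists were chosen with earlier results of these data known. Some genes of the lists are not reported here and were left out of the list counts. Named in the text are the 7 genes, the 2 largest rises and falls called per list in Ade compared to Con, Scap, Insig2, Srebf1 and Apoe, and the 8 genes most like the 7 inside groups. Msmo1, Sc5d, Ebp and Dhcr7 were added to these after their values were seen. Idi1 was left out of that mean and the 4 mice with Adipoq above 10 CPM were left out of added fits after the data were seen. Alternatives were DESeq2 1.42.0, other scalings, pseudocounts and filters, a 3-group fit, the leading digit of the mouse numbers as a block, and leaving out each mouse.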

Additional observations from a re-analysis of the deposited data

Results flagged for a closer look

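Among 24 sets of CPM values (the 7 genes and Cyp51 in 3 groups), 3 held a mouse whose gap to its nearest neighbour was too large a share of the group's range by Dixon's 95% limit, where chance gives about 1 set in 20. Ade replicate 1 stood apart in Sqle, at 95.8 CPM against 61.0 in the next mouse, and in Insig1, at 34.6 CPM against 21.8. This mouse also held 17.3 CPM of Adipoq, the highest of the Ade group. Ade + IMC replicate 3 stood apart in Sqle, at 83.2 CPM against 57.4, and held no Adipoq read. The causes were not tested. Of the calls, only that of Insig1 in Ade compared to Con turned on one of these mice among the 7 genes.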

How the results depend on the processing

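Hmgcs1 stayed called and lower than Con in both adenine groups under every alternative run, and Fdps stayed called and higher in Ade. In Ade compared to Con, library totals alone gave log2 fold changes of -0.15 for Lss (call lost), 0.38 for Srebf2 (call gained), 0.0265 for Insig1 and 0.266 for Sqle (both turned in sign, uncalled), and upper quartile scaling gave 0.14 for Srebf2 (called) and 0.0299 for Sqle. RLE scaling gave -0.29 for Insig1 (adjusted p = 0.0993). Without the Adipoq mice Insig1 was at -0.43 (called). In Ade + IMC compared to Con, library totals alone gave -0.0808 for Lss (call lost), 0.59 for Fdps and 0.33 for Srebf2 (calls gained), and 0.27 for Insig1 and 0.19 for Sqle (sign turned). Upper quartile scaling gave 0.37 for Fdps (called) and 0.0494 for Insig1, and the 3-group fit gave 0.33 for Fdps (called) and 0.0113 for Insig1. Without the Adipoq mice Sqle was at 0.10. Library totals and upper quartile scaling moved the median of all genes to between 0.06 and 0.32.

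In Ade + IMC compared to Ade, genes called numbered 37 with DESeq2, 133 with the leading digit as a block and 1 without the Adipoq mice, and Sqle was then at 0.31. The causes were not tested. Leaving out each mouse moved Sqle between -0.22 and 0.14 and Insig1 between -0.43 and -0.21 in Ade compared to Con. In Ade + IMC compared to Con it moved Sqle between -0.23 and 0.0663, Insig1 between -0.20 and 0.10, Srebf2 between -0.0698 and 0.14 and Fdps between 0.18 and 0.38. In Ade + IMC compared to Ade it moved Sqle between -0.11 and 0.14, Srebf2 between -0.12 and 0.0386 and Scap between -0.00281 and 0.0846. Idi1 did not pass the low-count filter and was tested by exact permutation only.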
